A study of Homo sapiens with 18 samples.

Results

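The comparison set 3 arrays of cells labelled HepG2 against 3 arrays of the same labelled cells, all given doxorubicin (DOX). The first 3 are labelled as transfected with an siRNA against hnRNP K, the others with a scramble siRNA. These 6 arrays, chosen by their sample titles, are part of 18 single-channel Illumina bead arrays in 6 groups of 3. The 6 groups are si-hnRNPK, si-PSTAR and scramble (NC) siRNA, each with DOX at 400 nM for 16 hours or without DOX. HepG2 is a line from a human liver carcinoma, and PSTAR is a long noncoding RNA. Whether each array stands for a culture of its own is not stated in the labels, so the p-values reflect a spread from array to array that may be only technical. Each gene is given by its brightest probe in log2 units of intensity, so a difference of 1 is 2-fold, and a level below the median of all probes, 5.72, is called dim. Apart from the check of cell type markers and the word dim, levels of different probes are not compared with each other.

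hnRNP K is an RNA- and DNA-binding protein that recognises cytosine-rich stretches and takes part in transcription, splicing, RNA stability and translation. After DNA damage it acts as a partner of the transcription factor p53. Doxorubicin poisons topoisomerase II and breaks DNA, p53 then accumulates, and its targets stop the cell cycle, repair DNA or start cell death.

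HNRNPK, the gene the siRNA is labelled to target, was only slightly lower in the arrays labelled si-hnRNPK. Its brightest probe read 11.10, 11.50 and 11.48 in arrays labelled si-hnRNPK, against 12.01, 11.87 and 11.96 in scramble arrays. The groups did not overlap, and the difference was -0.59 ± 0.10 (SE), with a limma adjusted p of 5.13e-05. The remaining 3 probes differed by 0.027, -0.20 and -0.11, with adjusted p of 0.875, 0.128 and 0.438 over all probes. In the DOX-treated arrays labelled si-PSTAR the brightest probe averaged 8.32, far below both other groups. Without DOX it averaged 11.55 in arrays labelled si-hnRNPK, 11.72 in scramble arrays and 8.44 in arrays labelled si-PSTAR. There the difference between si-hnRNPK and scramble was -0.17, with a limma adjusted p of 0.254 over all probes, and no HNRNPK probe was called. HNRNPK therefore goes against the labels, and every direction below holds for arrays as labelled.

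The liver label was checked on 21 liver cell markers with a named probe. Of these, 13 were dim on average over the 18 arrays, among them AFP, APOA1, APOA2, APOB, APOH, TF, FGB, AHSG and RBP4, genes of proteins that liver cells secrete. Among the 8 that were not dim, TTR, SERPINA1 and FGA, also genes of secreted proteins, stood close to the median, at 5.74, 5.81 and 5.88. The keratin gene KRT18 stood at 7.87. Only KRT8, a keratin of simple epithelia, stood above 10, at 11.09, and FOXA1 and CEBPA, liver transcription factors that other tissues also use, stood at 8.80 and 7.95. The other 2 markers of the list are not analysed here. ALB, the serum albumin gene, read 8.63, 8.68 and 8.75 in arrays labelled si-hnRNPK, against 6.95, 6.83 and 6.75 in scramble arrays. Its second probe was dim and differed by 0.12. The data therefore go against the liver label, and the cells are called cells labelled HepG2. Among 27 measured markers of other cell types, 12 were above the median of all probes and 0 above 10, and their summed linear level was 2043 to 2220 in arrays labelled si-hnRNPK, against 2530 to 2584 in scramble arrays. DCN and COL3A1, matrix genes, and PDGFRB, a growth factor receptor of mesenchymal cells, were lower, and CDH5, an endothelial cadherin, was higher. Their part in the results below was not tested. In a bulk sample, fewer cells of a type and less RNA per cell cannot be told apart.

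**Figure D1:**
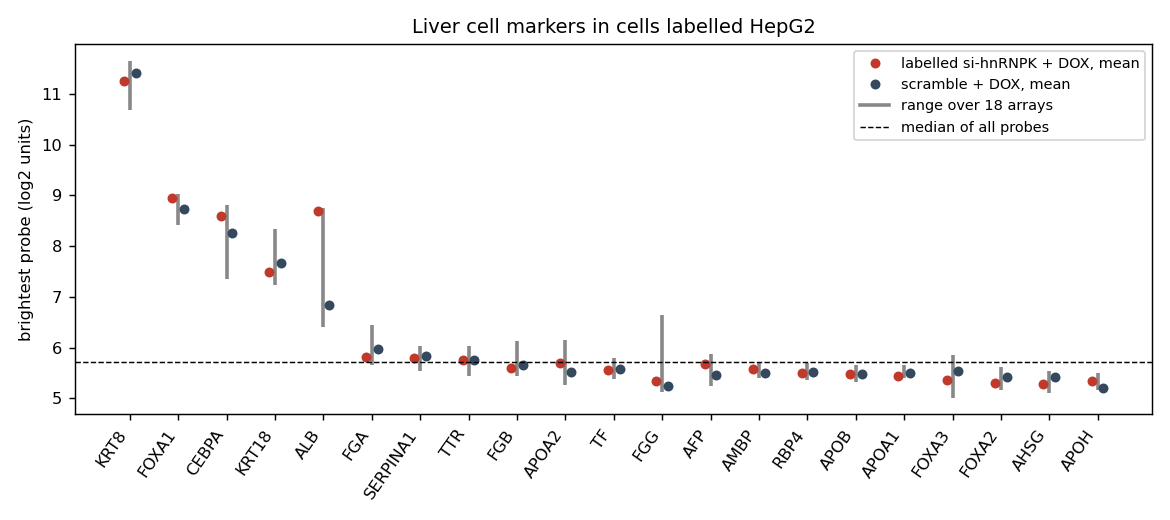
Brightest probe of each liver marker (vertical axis, log2 units). Red and dark points are means of the 3 DOX-treated arrays labelled si-hnRNPK and of the 3 DOX-treated scramble arrays, grey lines are ranges over 18 arrays, and the dashed line is the median of all probes. KRT8 is at the top, and 13 of the 21 genes lie below the line on average.

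Of 12483 genes tested, 4960 (39.7%) passed an adjusted p of 0.05. Of these, 2473 (19.8%) were higher and 2487 (19.9%) lower in arrays labelled si-hnRNPK. Differences of at least 2-fold were called for 397 genes (3.18%), with 173 (1.39%) higher and 224 (1.79%) lower. For 46.9% of genes (23.2% higher, 23.7% lower) the values of both groups did not overlap. The correlation across genes was 0.9939 to 0.9955 between arrays labelled si-hnRNPK, 0.9952 to 0.9957 between scramble arrays and 0.973 to 0.975 between the groups. The median of all genes differed by -0.0058. A list of genes is read below against these shares, and lists carry no test of their own.

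A second probe was used to see how far a call holds for another stretch of the same gene. In 3314 genes both brightest probes were at or above the median. Over the 21981 probes at or above the median, 7220 (32.8%) were called. Of 1384 such genes called on the brightest probe, 639 were called the same way on the second, 30 the other way and 715 were not called. Of 111 called with at least a 2-fold difference, 83 held on the second probe and 3 were called the other way. Across these genes, which are not independent replicates, the 2 probes' differences correlated at 0.646.

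**Figure D2:**
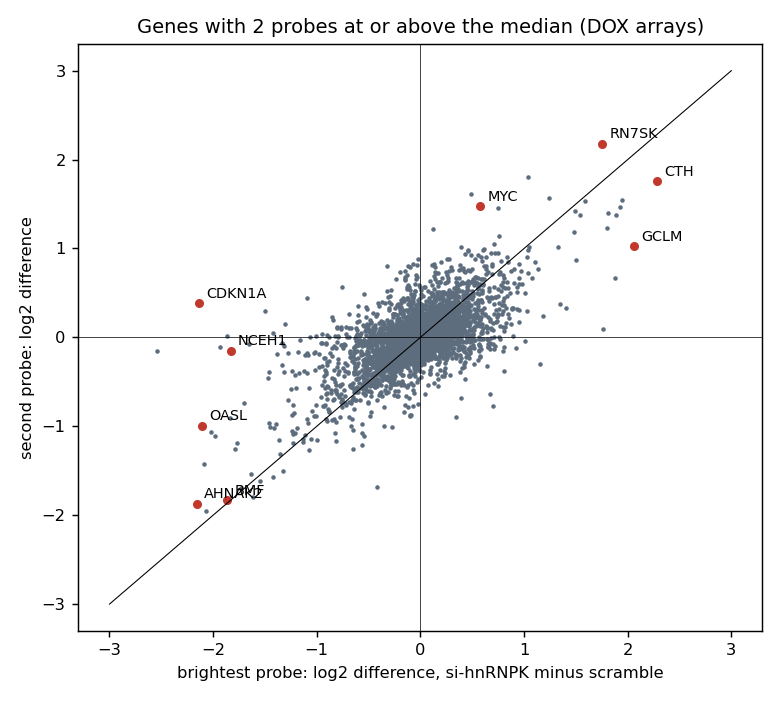
Each point is a gene with 2 probes at or above the median of all probes. The horizontal axis is the log2 difference on the brightest probe, arrays labelled si-hnRNPK minus scramble with DOX, and the vertical axis is that on the second probe. CTH, GCLM, RN7SK and AHNAK2 moved the same way on both probes, while CDKN1A and NCEH1 lie far from it.

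Genes of short nuclear RNAs held most of the largest rises. U3, made from the SNORD3 genes, guides the first cuts of the ribosomal RNA precursor. SNORD3A read 11.88, 11.80 and 11.90 in arrays labelled si-hnRNPK, against 8.15, 7.95 and 7.98 in scramble arrays. The groups were far apart, with a difference of 3.83 ± 0.092 (SE) and an adjusted p of 6.48e-21. SNORD3C and SNORD3D differed by 3.65 and 3.71. The 3 genes are near-identical copies, so their probes are not separate evidence.

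Spliceosomal RNAs work inside small nuclear ribonucleoproteins, where U1 recognises the 5′ splice site and U4 pairs with U6 until the spliceosome is activated. Of 13 tested genes on the list of spliceosomal RNAs 11 rose, 0 fell, and their median difference was 2.37. The U5 gene RNU5A-1 counts as a rise at only 0.26, and was dim in scramble arrays. The U2 gene RNU2-1 was not called, at 0.064, with both groups near the median of all probes, though without DOX it was higher by 0.99. RNU105C, whose number is not that of a spliceosomal RNA, was also on the list and not called, at -0.046. RNU4-2, a U4 gene, read 10.79, 10.81 and 10.90 in arrays labelled si-hnRNPK, against 6.95, 7.20 and 7.20 in scramble arrays. The U1 gene RNU1-3 read 12.09, 11.90 and 11.72 in arrays labelled si-hnRNPK, against 8.24, 8.30 and 8.33 in scramble arrays. Neither gene's groups overlapped, and the differences were 3.72 ± 0.12 (SE) and 3.61 ± 0.092. RNVU1-18, RNVU1-7 and RNU1-1, further U1 genes or variants, differed by 3.70, 3.54 and 2.86, and U1 copies can share probes. The minor spliceosome genes RNU11, RNU6ATAC and RNU4ATAC differed by 2.54, 2.37 and 2.27. RNU6-1, a U6 gene transcribed by RNA polymerase III, differed by 2.30. RNU4-1 averaged 7.78 in arrays labelled si-hnRNPK, against a dim 5.54 in scramble arrays.

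Small nucleolar and Cajal body RNAs guide chemical changes on ribosomal and spliceosomal RNA and are mostly cut from introns. Of 298 such genes with a probe, 167 were tested and 131 lay below the filter. Among those tested 108 rose and 3 fell, with a median of 0.41. With no filter 116 of 298 rose and 1 fell, with a median of 0.16. SNORA12 read 9.48, 9.49 and 9.37 in arrays labelled si-hnRNPK, against 6.67, 6.69 and 6.40 in scramble arrays, a difference of 2.86 ± 0.11 (SE). SNORD13, which guides acetylation of 18S ribosomal RNA and has its own promoter, read 9.66, 9.51 and 9.30 in arrays labelled si-hnRNPK, against 6.60, 6.73 and 6.73 in scramble arrays. Its difference of 2.80 was of the same order. SNORD46, SNORA63, SNORA80E and SNORA9 differed by 2.66, 2.24, 2.22 and 2.12. SNORA73B rose on both its probes, by 1.58 and 1.53.

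Other short RNAs made by RNA polymerase III or acting in RNases were mixed. Of 12 tested, 7 rose and 3 fell. RN7SK, the 7SK RNA that holds the elongation factor P-TEFb inactive, read 12.40, 12.41 and 12.26 in arrays labelled si-hnRNPK, against 10.52, 10.65 and 10.63 in scramble arrays. The difference of 1.76 ± 0.088 (SE) was 2.18 on its second probe. TERC, the telomerase RNA, and RNY4, a Y RNA, rose by 1.70 and 1.42. RMRP, the RNA of RNase MRP, rose by 0.48.

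The labelled amplification kit starts from poly(A) tails, which the mature forms of most of these RNAs lack, and which forms were amplified was not tested. Genes of factors that cut small nuclear RNA and histone RNA ends moved less. Of 36 tested, 10 rose and 6 fell, among them INTS10 and INTS13, subunits of the Integrator complex that cuts U RNA ends, at 0.91 and 0.78. NPAT, which drives histone gene transcription, differed by -0.48. The nuclear exosome and its helpers, which trim and degrade such RNAs, had 12 of 27 higher and 2 lower. EXOSC3, an exosome subunit, rose on both probes, by 0.80 and 0.41, and the helicase gene MTREX rose by 0.74. ZCCHC8, which with MTREX forms an exosome adaptor, fell by 0.60. Of 23 snoRNA host genes 10 rose and 2 fell, with SNHG4 at 1.02 and SNHG8 at 0.85.

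**Figure D3:**
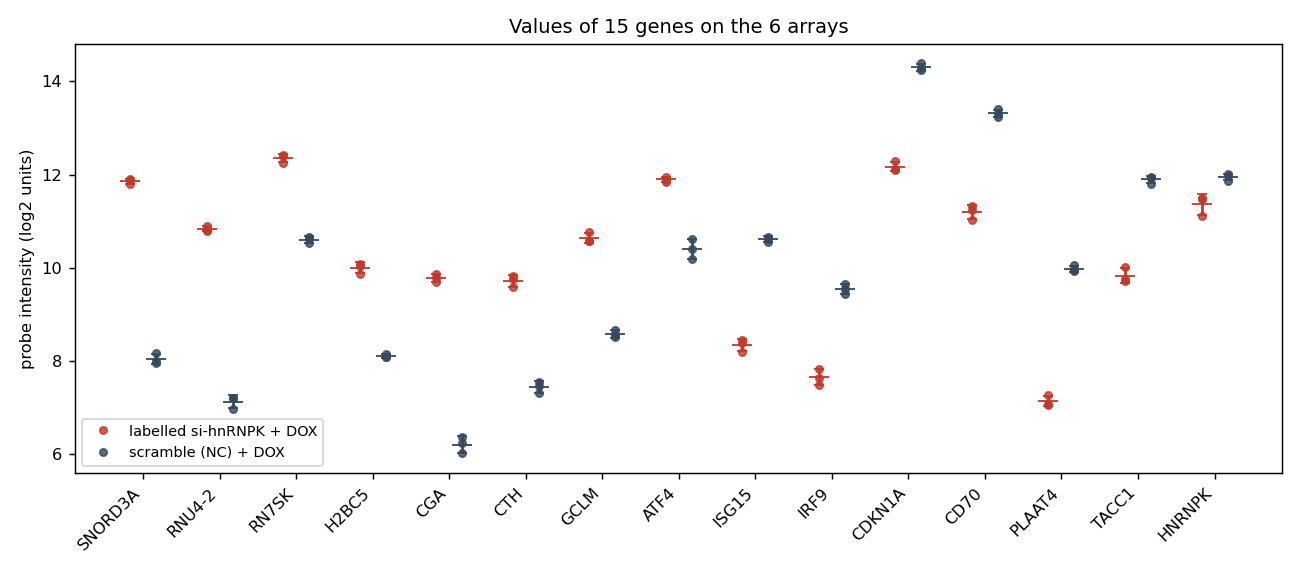
Brightest probe of 15 genes on the 6 arrays (vertical axis, log2 units). Red points on the left are DOX-treated arrays labelled si-hnRNPK and dark points on the right DOX-treated scramble arrays, with bars for the mean and SD of 3. SNORD3A to ATF4 lie higher in the arrays labelled si-hnRNPK and ISG15 to HNRNPK lower, and no gene's groups overlap.

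Replication-dependent histone genes, which lie in clusters, are expressed as DNA is copied and end in a stem-loop instead of a poly(A) tail, rose together. Of 70 with a probe 47 were tested. Of these 41 rose and 0 fell, against 19.8% of all genes higher, and their median difference was 0.81. With no filter 43 of 70 rose and 0 fell, with a median of 0.49. H2BC5, an H2B gene, read 9.86, 10.08 and 10.04 in arrays labelled si-hnRNPK, against 8.07, 8.08 and 8.15 in scramble arrays. The groups did not overlap, the difference was 1.89 ± 0.086 (SE) and the second probe gave 1.38. H3C13 rose by 1.94 and by 1.55 on its second probe. H3C14 and H2BC7 differed by 1.89 and 1.44, and H3C1 averaged 7.29 in arrays labelled si-hnRNPK, against a dim 5.63 in scramble arrays. Clustered histone genes are near-identical in coding sequence, so a probe may read several of them. The limit set by the labelled kit, which needs a poly(A) tail, holds here as well. Whether stem-loop or tailed histone transcripts gave these signals was not tested.

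Replication-independent histone variants, made from polyadenylated RNA, had 0 of 10 higher and 5 lower. H3-3A, one of the genes of histone H3.3, read 13.51, 13.36 and 13.15 in arrays labelled si-hnRNPK, against 14.18, 14.18 and 14.12 in scramble arrays. It was lower in every array and fell on further probes by 1.07 and 1.12. H2AJ and CENPA, the centromeric H3, differed by -0.70 and -0.37.

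Histone H2A and H2B promoters are known for an octamer bound by POU-domain factors. The octamer ATTTGCAT, searched on both strands of the 300-base windows that RefSeq (GRCh38.p14) gives around gene starts, was in 16 of 23 tested H2A and H2B windows (69.565%) and in 1.802% of all 27305 windows. The windows of H2BC7 and H2BC21 are shown because only H2BC7 of the pair rose, with the octamer in capitals. H2BC7 lies at chr6:26199266-26199565 on the plus strand and H2BC21 at chr1:149886633-149886932 on the minus strand.
H2BC7: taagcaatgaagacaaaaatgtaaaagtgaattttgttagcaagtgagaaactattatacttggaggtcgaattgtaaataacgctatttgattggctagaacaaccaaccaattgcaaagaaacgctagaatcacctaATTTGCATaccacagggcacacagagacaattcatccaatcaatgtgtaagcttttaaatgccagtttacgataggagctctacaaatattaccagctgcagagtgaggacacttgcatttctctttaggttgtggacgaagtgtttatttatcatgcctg
H2BC21: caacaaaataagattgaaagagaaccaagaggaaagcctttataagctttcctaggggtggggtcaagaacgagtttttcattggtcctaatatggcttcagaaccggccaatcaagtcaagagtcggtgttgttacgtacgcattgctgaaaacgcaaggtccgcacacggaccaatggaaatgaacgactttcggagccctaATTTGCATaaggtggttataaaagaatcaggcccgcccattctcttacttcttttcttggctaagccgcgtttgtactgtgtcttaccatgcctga
H2BC7 rose by 1.44, while H2BC21, chosen after its values were seen, differed by -0.0031 with an adjusted p of 0.986. Over all core and linker histone genes with a window, the 17 with the octamer had a median of 0.55 and 13 higher, and the 27 without had a median of 0.98 and 25 higher. Those without it are mostly H3, H4 and H1 genes, so this split also follows histone class. The part of the octamer was not tested.

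Interferon-stimulated genes mostly fell. They encode antiviral proteins and are switched on by the factor complex ISGF3 at interferon-stimulated response elements. Of 47 tested 30 fell and 1 rose, against 19.9% of all genes lower, and the median difference was -0.48. Their promoters are shown first because both genes that fell and the gene that rose hold the element. The element, read as GAAA, any 2 bases and GAAA, on both strands and counting overlapping matches once, was in 26 of 39 windows of tested members (66.667%) and in 3.648% of all windows. Capitals mark the matches. ISG15 lies at chr1:1013247-1013546, IFIT1 at chr10:89392373-89392672 and MX1 at chr21:41420308-41420607, each on the plus strand of GRCh38.p14.
ISG15: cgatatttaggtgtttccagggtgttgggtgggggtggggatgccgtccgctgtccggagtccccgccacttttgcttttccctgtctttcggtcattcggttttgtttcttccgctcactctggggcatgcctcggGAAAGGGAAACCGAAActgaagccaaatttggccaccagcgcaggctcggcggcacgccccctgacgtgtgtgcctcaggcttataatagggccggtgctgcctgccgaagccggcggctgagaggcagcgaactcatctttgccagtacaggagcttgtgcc
IFIT1: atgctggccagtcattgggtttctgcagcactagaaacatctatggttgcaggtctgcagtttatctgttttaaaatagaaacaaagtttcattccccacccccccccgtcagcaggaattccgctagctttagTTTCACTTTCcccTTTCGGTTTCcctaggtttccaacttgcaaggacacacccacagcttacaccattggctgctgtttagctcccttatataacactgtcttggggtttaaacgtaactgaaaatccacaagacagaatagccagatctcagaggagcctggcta
MX1: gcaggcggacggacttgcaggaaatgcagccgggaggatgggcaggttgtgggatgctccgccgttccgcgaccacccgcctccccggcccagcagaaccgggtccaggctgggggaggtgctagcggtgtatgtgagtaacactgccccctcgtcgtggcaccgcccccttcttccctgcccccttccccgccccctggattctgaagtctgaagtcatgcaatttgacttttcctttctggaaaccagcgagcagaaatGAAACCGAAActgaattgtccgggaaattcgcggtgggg
The 26 members with the element had a median of -0.39 and the 13 without one -0.48.

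ISG15, a ubiquitin-like modifier, read 8.44, 8.19 and 8.37 in arrays labelled si-hnRNPK, against 10.54, 10.66 and 10.62 in scramble arrays. All 3 arrays labelled si-hnRNPK were lower, by 4.84-fold on average (-2.27 ± 0.11, SE, adjusted p of 3.97e-15). IFIT2 and IFIT1 bind foreign RNA or block its translation. IFIT2 read 6.66, 6.53 and 6.43 in arrays labelled si-hnRNPK, against 9.09, 9.40 and 9.25 in scramble arrays, and was 6.54-fold lower. IFIT1 read 7.50, 7.72 and 7.57 in arrays labelled si-hnRNPK, against 9.45, 9.45 and 9.67 in scramble arrays, but its second probe, near the median of all probes, differed by only -0.11. IFIT3 fell on both probes, by 1.77 and 1.18, and OASL, an oligoadenylate synthetase relative, by 2.11 and 1.0. IFITM1, a membrane protein that blocks virus entry, fell by 1.86.

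IRF9, the DNA-binding subunit of ISGF3, read 7.63, 7.47 and 7.83 in arrays labelled si-hnRNPK, against 9.53, 9.44 and 9.65 in scramble arrays. It fell without overlap by 1.89 ± 0.11 (SE). MX1, an antiviral GTPase, was the 1 member that rose and was picked out after its values were seen. It read 8.36, 8.08 and 8.29 in arrays labelled si-hnRNPK, against 6.72, 6.77 and 6.73 in scramble arrays, and differed by 1.50 ± 0.094 (SE). Its groups did not overlap. The MHC class I pathway, which shows peptides to T cells and responds to interferon, had 10 of 18 lower and 2 higher. HLA-B read 6.62, 6.67 and 6.93 in arrays labelled si-hnRNPK, against 8.40, 8.41 and 8.34 in scramble arrays. HLA-B fell by 1.65, HLA-E by 0.90, HLA-F by 0.72, the peptide loading gene TAPBP by 0.92 and the proteasome activator PSME2 by 0.54. HLA genes are alike, and a probe may read an allele or a relative.

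Among p53 targets that act in arrest, repair or feedback 14 of 20 were lower and 0 higher, with a median of -0.80. CDKN1A encodes p21, the inhibitor that stops the cycle after DNA damage. It read 12.12, 12.11 and 12.29 in arrays labelled si-hnRNPK, against 14.24, 14.29 and 14.39 in scramble arrays, where the highest value of any probe was 14.80. The groups were far apart, with a difference of -2.13 ± 0.1 (SE), but the second probe, at a mean of 6.9, was called the other way at 0.38. SESN1, a sestrin that restrains mTORC1, read 7.88, 8.00 and 8.07 in arrays labelled si-hnRNPK, against 9.50, 9.69 and 9.56 in scramble arrays. GDF15, a secreted stress cytokine, read 10.29, 10.36 and 10.61 in arrays labelled si-hnRNPK, against 12.334, 12.001 and 12.334 in scramble arrays. Neither gene's groups overlapped, and the differences were -1.60 and -1.80. PHLDA3, a pleckstrin-domain protein, and RPS27L, a ribosomal protein relative, fell by 1.25 and 1.03. These genes have 1 probe or a dim second probe.

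Targets linked to cell death went both ways, with 6 of 16 lower and 4 higher. TP53I3, an oxidoreductase, fell by 1.12, the death receptor TNFRSF10B by 0.90, the nuclease AEN by 0.84 and BAX, which opens the mitochondrial outer membrane, by 0.79. AEN and TNFRSF10B also fell on their second probes, by 0.69 and 0.63. IGFBP3, which binds insulin-like growth factors, rose on both probes, by 1.04 and 1.01. In the BCL2 family 6 of 15 fell and 2 rose. BMF, a death-promoting BH3-only protein, averaged a dim 5.68 in arrays labelled si-hnRNPK, against 7.55 in scramble arrays, and its second probe differed by -1.83. BCL2L13 fell by 1.27 and BNIP2 by 0.77, and BCL2, which protects from death, rose on both probes, by 0.60 and 0.50.

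The list of NF-kB subunits and inhibitors, cytokines and chemokines had 10 of 24 lower and 3 higher. CD70, a TNF-family ligand, read 11.24, 11.02 and 11.33 in arrays labelled si-hnRNPK, against 13.31, 13.23 and 13.40 in scramble arrays. It was lower in every array, 4.33-fold on average. The chemokine genes CCL2, CCL5 and CXCL16 fell by 1.34, 1.23 and 1.0, and CCL5 by 1.19 on its second probe. IL32 fell by 0.91. CXCL8, the neutrophil chemokine, rose by 0.85 and by 0.55 on its second probe. Of 34 immediate early genes 13 fell and 7 rose. IER3 and IER5 fell by 0.91 and 0.89, while JUN, a subunit of AP-1, rose by 0.85.

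Genes of amino acid supply and stress under the factor ATF4 rose more often than all genes, 18 of 30 higher and 3 lower, with a median of 0.39. The 3 that fell were the stress genes DDIT4, CEBPB and ATF3, at -0.78, -0.51 and -0.45. Of other stress genes on the list, DDIT3 and CHAC1 were not called, at -0.14 and -0.089, and TRIB3 rose by 0.60. CTH, cystathionine gamma-lyase, makes cysteine. It read 9.57, 9.75 and 9.82 in arrays labelled si-hnRNPK, against 7.46, 7.29 and 7.54 in scramble arrays. The groups were far apart, 4.87-fold on average, and further probes gave 1.76 and 1.48. ATF4 read 11.84, 11.95 and 11.89 in arrays labelled si-hnRNPK, against 10.40, 10.17 and 10.61 in scramble arrays, a difference of 1.50, with 0.87 on its second probe and 0.22 on the third, which was not called. The arginine carrier SLC7A1 and the proline enzyme PYCR1 rose by 1.16 and 0.95. SLC7A11, the cystine carrier, averaged 6.63 in arrays labelled si-hnRNPK, against a dim 5.68 in scramble arrays. Of 18 cytosolic tRNA synthetase genes 6 rose and 2 fell, SARS1 at 0.64 and AARS1 at -0.57.

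Glutathione and the factor NRF2 are tied to cysteine, and 11 of 29 antioxidant genes rose and 7 fell. GCLM encodes the modifier subunit of the enzyme that starts glutathione synthesis. It read 10.58, 10.56 and 10.76 in arrays labelled si-hnRNPK, against 8.55, 8.66 and 8.51 in scramble arrays. Every array labelled si-hnRNPK was higher, 4.17-fold on average, and the second probe gave 1.03. PIR, pirin, read 10.68, 10.90 and 10.87 in arrays labelled si-hnRNPK, against 9.09, 8.99 and 8.94 in scramble arrays, with 1.81 and 1.40 on its 2 brightest probes. The transporter ABCC3 fell by 1.61 and the aldo-keto reductases AKR1C3 and AKR1C2 by 1.12 and 1.07, and these relatives may share probes. The antioxidant response core TGACNNNGC was in 5 of 22 tested members' windows (22.727%), in 13.558% of all windows and in 15.405% of those of genes tested. The ATF4, interferon-stimulated and histone lists held it in 30.435%, 23.077% and 18.182% of windows, so it was not particular to this list. The GCLM window, at chr1:93909381-93909680 on the minus strand of GRCh38.p14, is shown for the largest rise of the list, with the match in capitals.
GCLM: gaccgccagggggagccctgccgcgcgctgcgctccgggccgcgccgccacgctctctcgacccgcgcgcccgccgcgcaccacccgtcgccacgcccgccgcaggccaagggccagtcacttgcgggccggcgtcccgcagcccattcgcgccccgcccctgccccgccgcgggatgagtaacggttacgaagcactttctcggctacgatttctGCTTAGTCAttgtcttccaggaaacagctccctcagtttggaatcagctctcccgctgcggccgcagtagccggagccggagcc

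Cell cycle genes showed no common direction. Of 44 mitosis genes 8 rose and 8 fell. MAPRE1, which tracks growing microtubule ends, read 8.86, 8.82 and 8.95 in arrays labelled si-hnRNPK, against 10.82, 11.03 and 10.96 in scramble arrays. It fell by 2.06, while BIRC5, the survivin gene, rose by 0.93 and CDK1, the mitotic kinase, by 0.63. Of 45 DNA replication genes 12 fell and 4 rose. The clamp loader RFC5, the ligase LIG1 and RRM2, which supplies deoxynucleotides, fell by 1.17, 1.18 and 0.85. Of 25 E2F, G1 cyclin and CDK inhibitor genes 7 rose and 6 fell. CDK6, a G1 kinase, rose by 1.19, and the CDK inhibitors CDKN1B and CDKN2B fell by 0.84 and 0.83. The inhibitors CDKN1C, CDKN2A and CDKN2D were not called. CDKN2B fell on its second probe by 0.92, while the second CDKN1B probe differed by 0.20 and was not called. Of 12 genes of the MYC network 1 rose and 5 fell. MYC rose on both probes, by 0.57 and 1.48, and MYCN averaged a dim 5.63 in arrays labelled si-hnRNPK, against 7.08 in scramble arrays.

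**Figure D4:**
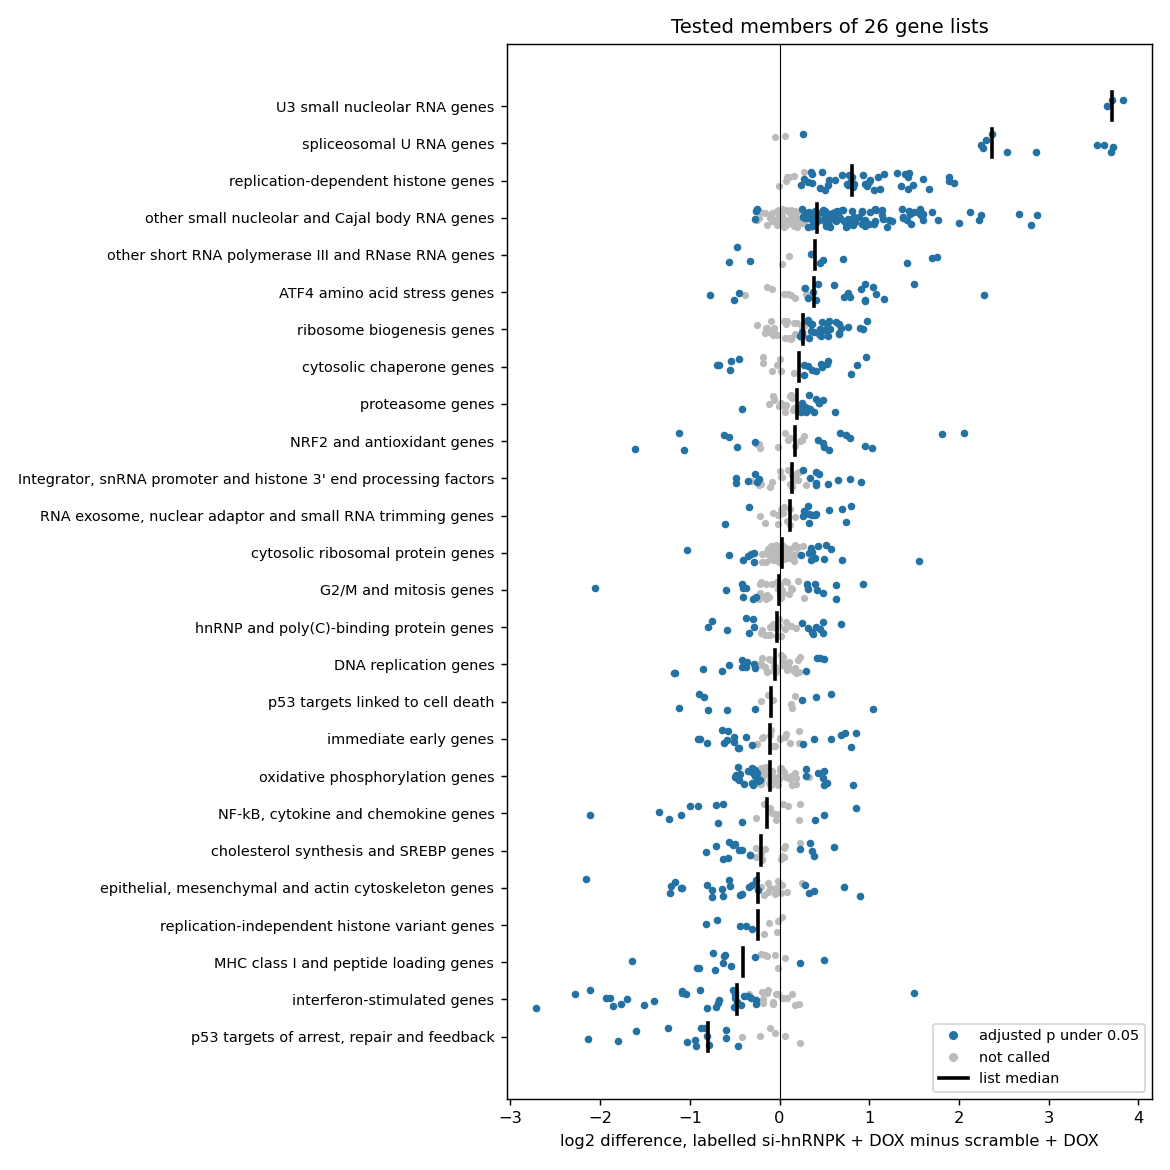
Each point is a tested member of a gene list, and the horizontal axis is its log2 difference, arrays labelled si-hnRNPK minus scramble with DOX. Blue points passed an adjusted p of 0.05, grey points did not, and black bars are list medians, from 3.71 for U3 at the top to -0.80 for the p53 arrest targets at the bottom.

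Adhesion, cytoskeleton and mesenchymal genes fell more often, 19 of 37 lower and 5 higher. AHNAK2, a large scaffold protein, read 6.84, 6.52 and 6.52 in arrays labelled si-hnRNPK, against 8.89, 8.69 and 8.77 in scramble arrays, and fell on its second probe by 1.87. PLAUR, the urokinase receptor, fell on 3 probes, by 1.10, 0.92 and 1.03. The smooth muscle actin ACTA2, the calponin CNN2 and the laminin chain LAMB3 fell by 1.22, 1.20 and 1.09. GSN, gelsolin, which severs actin, read 7.74, 7.84 and 7.83 in arrays labelled si-hnRNPK, against 9.93, 9.71 and 9.82 in scramble arrays. Its groups did not overlap, and it fell by 2.02.

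Several hormone and secretory granule genes rose, although most such genes were dim. Of 36 with a probe 14 were tested, 6 rose and 0 fell, against 19.8% of all genes tested higher. With no filter 7 of 36 rose and 0 fell, with a median of -0.035. The filter uses the mean over all arrays, so a gene high only in arrays labelled si-hnRNPK can pass it through them. CGA, the alpha subunit shared by pituitary and placental glycoprotein hormones, read 9.78, 9.70 and 9.87 in arrays labelled si-hnRNPK, against 6.22, 6.36 and 6.01 in scramble arrays. It was 12-fold higher, the largest rise outside the short RNA genes. SCG2, a granin, read 8.47, 8.67 and 8.69 in arrays labelled si-hnRNPK, against 5.92, 5.76 and 5.41 in scramble arrays, where its mean was dim. VGF, a neuropeptide precursor, rose by 1.53. INSL4, a placental insulin-like gene that is not on this list, read 9.80, 9.77 and 9.63 in arrays labelled si-hnRNPK, against 7.71, 7.39 and 7.55 in scramble arrays. These 4 genes were higher in every array labelled si-hnRNPK. Among single genes outside the lists, RGS2, a brake on G protein signals, rose by 2.43. OPN3, an opsin, OLFM1, a secreted olfactomedin, and RIMKLB rose on both probes, by 1.92 and 1.46, 1.80 and 1.23, and 1.88 and 0.66.

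Large falls outside the lists began with PLAAT4, a phospholipase and acyltransferase. It read 7.08, 7.05 and 7.26 in arrays labelled si-hnRNPK, against 9.94, 10.05 and 9.93 in scramble arrays, the largest fall of all genes tested at 7.18-fold. TACC1, a centrosomal coiled-coil protein, read 9.75, 9.71 and 10.02 in arrays labelled si-hnRNPK, against 11.81, 11.94 and 11.94 in scramble arrays, and fell by 2.07, 1.95 and 1.64 on 3 probes. C1QTNF6 and C1QTNF1, relatives of complement C1q, fell by 2.02 and 2.55. C1QTNF6 fell by 1.07 and 0.90 on further probes, while the second C1QTNF1 probe differed by -0.16. The adaptor GRB7 fell by 2.09 and 1.43, the growth factor VEGFB by 1.83 and 0.91, the aldehyde dehydrogenase ALDH3A2 by 1.73 and 1.70, and DGKA, a diacylglycerol kinase, by 1.79 and 1.25. BHLHE40, a clock and hypoxia repressor, fell by 1.86. GNG10, a G protein subunit, and NCEH1, a cholesteryl ester hydrolase, fell by 1.86 and 1.83, but their second probes differed by 0.017 and -0.15.

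Protein synthesis and turnover shifted by smaller amounts. Of 55 ribosome biogenesis genes 29 rose and 0 fell, with a median of 0.26. NIP7, RRP12 and NOLC1, nucleolar assembly factors, rose by 0.98, 0.93 and 0.90. Ribosomal protein genes did not share a direction, 12 of 75 higher and 7 lower. Of 30 proteasome genes 15 rose and 1 fell, with PSMD14, the lid deubiquitinase, at 0.62. Of 24 cytosolic and mitochondrial chaperone genes 12 rose and 5 fell. HSPD1 and HSP90AA1 rose by 0.87 and 0.80, and by 0.50 and 0.57 on second probes, while HSPB1 fell by 0.69. Unfolded protein response genes had 4 of 25 higher and 5 lower.

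Of 75 oxidative phosphorylation genes 21 fell and 8 rose, with a median of -0.11. NDUFA12 of complex I fell by 0.44 and NDUFB9 of the same complex rose by 0.81. Of 28 genes of cholesterol and fatty acid synthesis and their SREBP regulators 11 fell and 5 rose, with INSIG1, a sterol sensor partner, at -0.82 and TM7SF2, a sterol reductase, at -0.71. The second INSIG1 probe differed by 0.011. SREBF1, the driver of lipid synthesis genes, fell by 0.56 on each of 2 probes. Glycolysis and hypoxia genes were split, 10 of 35 higher and 8 lower, with HK1, hexokinase, at -1.24 and PFKFB3, which raises glycolytic flux, at 0.80. Of 16 complement genes 6 fell and 3 rose, CFB at -1.42 and the protective surface protein CD55 at 0.89. The metallothionein genes MT2A and MT1X fell by 0.76 and 0.64. Among hnRNP genes 9 of 33 rose and 7 fell, HNRNPU at -0.79 and PCBP2, which like hnRNP K carries KH domains and binds cytosine runs, at 0.37 and 0.52.

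The untreated arrays, which share none with the DOX comparison, gave the same contrast without the drug. There 4153 genes (33.3%) were called, 17% of all tested being higher and 16.2% lower. Across genes, the differences with and without DOX correlated at 0.840. Called higher in both were 1539 genes, called lower in both 1519, and 31 were called with opposite signs. That is 61.7% of the calls with DOX and 73.6% of those without called the same way. Of the 397 calls of at least 2-fold with DOX, 394 were called the same way without it. SNORD3A differed by 3.61 without DOX, RNU4-2 by 3.67, CGA by 3.74, CTH by 2.64, IFIT2 by -2.38, CDKN1A by -2.05 and TACC1 by -2.0. The second CDKN1A probe went the other way without DOX too, at 7.22 in arrays labelled si-hnRNPK, against 6.06 in scramble arrays, a difference of 1.16. Replication-dependent histones had 42 of 47 higher without DOX and 0 lower, interferon-stimulated genes 24 of 47 lower and 3 higher, and p53 arrest targets 12 of 20 lower and 0 higher. MX1 again rose, by 1.32.

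The interaction tests whether the difference from scramble differed with DOX. It was called for 396 genes (3.17%), 256 (2.05%) more positive and 140 (1.12%) more negative with DOX. The count was 243 without si-hnRNPK_dox array 3, 247 without NC_dox array 1, 205 without si-hnRNPK_no dox array 1, 219 without NC_no dox array 1 and 231 without NC_no dox array 2. On 3314 genes with 2 probes, the interaction correlated at 0.283 between probes, below the 0.646 of the difference with DOX. GDF15 had the most negative interaction, -2.07. It differed from scramble by -1.80 with DOX and by 0.27 without, with an adjusted p of 0.0594 without. HES2, a repressor of the Hairy family, differed by -1.99 with DOX and -0.69 without. The U5 gene RNU5A-1 and SNORD43 were higher without DOX, by 2.08 and 2.01, and differed by 0.26 and 0.38 with DOX, where scramble arrays were dim. RNU5A-1 averaged 8.04 without DOX and 5.86 with it in arrays labelled si-hnRNPK, against 5.96 and 5.61 in scramble arrays. The U2 gene RNU2-1 had an interaction of -0.92. CXCL8 and IL6 differed by 1.95 and 1.32 without DOX and by 0.85 and 0.23 with it. In the other direction, CPOX, a heme synthesis enzyme, and ACSL4, which activates arachidonic acid, were lower without DOX, at -1.61 and -1.43, and differed by -0.22 and -0.026 with it. MSMO1, a sterol oxidase, and MEX3C, an RNA-binding ubiquitin ligase, differed by -0.89 and -1.0 without DOX and by 0.39 and 0.11 with it. The p53 target CCNG1 differed by -1.57 without DOX and -0.47 with it, an interaction of 1.10.

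**Figure D5:**
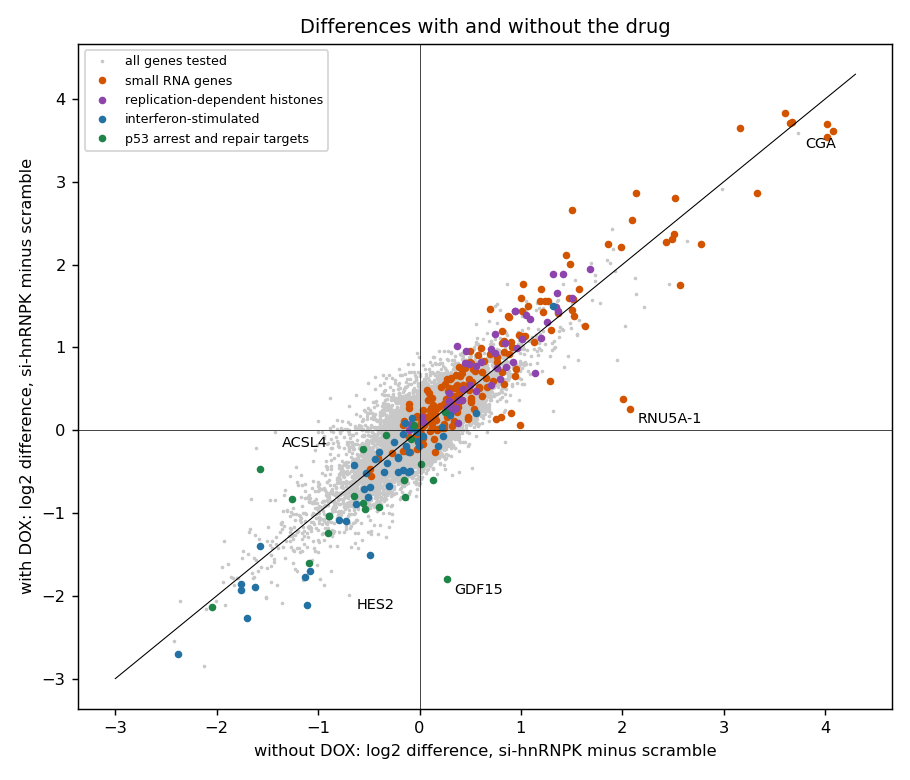
Each point is a tested gene. The vertical axis is the log2 difference with DOX and the horizontal axis that without DOX, each arrays labelled si-hnRNPK minus scramble, with the diagonal of equal differences. Of the interferon-stimulated genes 30 of 47 were called lower with DOX and 24 of 47 without, and MX1 lies high on both axes. U3 and most spliceosomal RNA genes lie high on both. RNU5A-1, and by less RNU2-1, lie to the right on the horizontal axis but near 0 on the vertical. GDF15 lies far below the diagonal, at -1.80 and 0.27.

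The DOX-treated arrays labelled si-PSTAR, whose HNRNPK was lowest, share the scramble arrays with this comparison, so both groups were set against each other directly. The direct contrast called 5402 genes (43.3%), with 22.3% higher and 20.9% lower. Short RNA and histone genes stood higher in arrays labelled si-hnRNPK. Of 13 genes on the spliceosomal list 10 were higher and 0 lower, and of 47 histone genes 38 and 0. Arrays labelled si-PSTAR themselves stood above scramble for SNORD3A, SNORD3C, SNORD3D and RN7SK, by 1.79, 1.54, 1.46 and 1.20. RNU4-2 and RNU1-3 stood above scramble there by 0.56 and 0.40, while RNU6-1 and RNU11 differed by -0.14 and 0.075 and were not called. CGA and SCG2 averaged 9.78 and 8.61 in arrays labelled si-hnRNPK, against 6.07 and 5.72 in arrays labelled si-PSTAR. The differences were 3.72 and 2.89. IRF9 and IFITM1 were lower in arrays labelled si-hnRNPK, with differences of -2.16 and -2.36. For PLAAT4 and IFIT1 the direct differences of 0.15 and -0.073 did not pass, with adjusted p of 0.163 and 0.605 and 95% intervals of -0.025 to 0.33 and -0.28 to 0.14. CDKN1A averaged 12.17 in arrays labelled si-hnRNPK, against 11.80 in arrays labelled si-PSTAR, higher by 0.37 with an adjusted p of 0.00362. GDF15 was also higher, by 0.86, and ATF4 differed by 0.07, with an adjusted p of 0.609.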

How the data were processed

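Total RNA was amplified with a kit for Illumina arrays, per the labels' protocols, and read on 18 arrays of 1 channel. The authors deposited log2 intensities of 43961 probes, used as deposited. The log base and quantile normalization were inferred from the values, since sorted columns lay within 0.01 of each other at 99.9955% of ranks. The background correction and software were not given in the sources used here. The treatment protocol in the labels lists more than 1 exposure time, and the design text's 16 hours was used. Every array had a median of 5.73, and the number of arrays limits the precision.

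The supplied annotation gave 1 symbol for 29511 probes, more than 1 for 0 and none for 14450, and 29474 matched the RefSeq gene table (GRCh38.p14) by identifier. The brightest probe over 18 arrays stood for each of 19782 genes, and 7299 genes with a mean under 5.72, the median over probes, were not tested.

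Group means (6) were fitted to 18 arrays with limma 3.58.1 in R 4.3.3 (12 residual and 13.49 prior degrees of freedom), with two-sided tests and Benjamini-Hochberg adjustment at 0.05 over all 12483 genes in each comparison. A second fit covered probes at or above the median. The fit was tested on simulated data. With 3 arrays against 3, the smallest exact permutation p is 0.1.

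Genes named are HNRNPK, the 25 largest rises and falls whose groups do not overlap, the 12 largest each way with 2 agreeing probes, up to 5 members with the smallest p in each list described, and the 6 largest interactions each way. MX1, H2BC21 and the stress genes DDIT4, CEBPB, ATF3, DDIT3, CHAC1 and TRIB3 were added after their values were seen. The comparison, members and lists were chosen with earlier results of these data known. Alternatives were other scalings, filters, probe rules, sets of arrays, priors and weights, a replicate block and leaving out arrays. Promoter windows and their coordinates come from RefSeq. Figures were drawn with matplotlib 3.10.9.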

Additional observations from a re-analysis of the deposited data

Results flagged for a closer look

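For 43 of the genes named by the stated rules, the difference between arrays labelled si-hnRNPK and scramble differed with the drug by the interaction test (limma, adjusted p under 0.05 over 12483 genes). Each value in parentheses is the log2 difference with DOX minus that without. Between 2 probes of a gene the interaction correlated with r = 0.283 across 3314 genes, which are not independent replicates. Groups of 3 arrays were not searched for single arrays that stand apart.

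The genes ACSL4 (1.40), CPOX (1.40), MEX3C (1.11), MSMO1 (1.27) and CDK1 (0.965) were lower than scramble without DOX, and with it MSMO1 and CDK1 were higher while the others did not pass the test. CCNG1 (1.10) and HLA-F (0.605) were lower than scramble in both settings, by less with DOX. The small nucleolar RNA genes SNORD46 (1.16), SNORA12 (0.733) and SNORA9 (0.679), the histone genes H2BC5 (0.573) and H2BC7 (0.496), and VGF (0.766), ATF4 (0.754) and BIRC5 (0.508) were higher in both settings, by more with DOX. CD55 (0.753), MTREX (0.687), NDUFB9 (0.665) and HSP90AA1 (0.604) were higher with DOX and did not pass the test without it.

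Negative values came from rises that were smaller with DOX and from falls that were larger. The small nuclear RNA genes RNU1-3 (-0.467), RNVU1-7 (-0.479) and RN7SK (-0.812), with JUN (-0.715) and CXCL8 (-1.10), were higher in both settings, by less with DOX. IL6 (-1.09) was higher without DOX and did not pass the test with it. SNORD43 (-1.63) and RNU5A-1 (-1.82) were dim in scramble arrays with DOX. The p53 targets SESN1 (-0.509) and TP53I3 (-0.542) were lower in both settings, by more with DOX, as were ISG15 (-0.572), IFIT3 (-0.644), OASL (-1.0), CCL5 (-0.726) and IL32 (-0.626) among interferon-stimulated and cytokine genes and PLAAT4 (-0.722), C1QTNF6 (-0.515), GRB7 (-0.734), CFB (-0.743), DGKA (-0.807) and HES2 (-1.29). BMF (-0.921) was also lower in both settings, and dim in arrays labelled si-hnRNPK with DOX. AEN (-0.644) and GDF15 (-2.07) were lower with DOX and did not pass the test without it.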

How the results depend on the processing

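The count of genes called, 4960, lay between 4359 and 4980 under 16 alternatives, with 48.8% to 53.3% of calls higher, and the replicate block gave 4949. Deviations from group means correlated at 0.096, -0.071 and 0.12 between arrays of the same number, so the numbers were not taken as pairs, and the block left each other count within 1.5 times, with 406 interactions. HNRNPK was lower under these alternatives, at -0.65 to -0.46 without single arrays and at -0.22 with the mean of its probes. The interaction count of 396 ran from 205 to 441 without single arrays; it was 243 without si-hnRNPK_dox array 3, 247 without NC_dox array 1, 205 without si-hnRNPK_no dox array 1, and 219 and 231 without NC_no dox arrays 1 and 2.

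For p53 targets of arrest, repair and feedback the median was -0.77 with cyclic loess, -0.60 with no filter, -0.85 with a filter at the 70th percentile and -0.71 with the mean of a gene's probes, and -0.81 to -0.78 without single arrays. For interferon-stimulated genes it was -0.35 with no filter and -0.39 with the mean of probes, and -0.49 to -0.39 without single arrays. For replication-dependent histone genes it was 0.49 with no filter and 1.0 with the 70th percentile filter, and 0.79 to 0.86 without single arrays. For spliceosomal U RNA genes it was 2.70 with the 70th percentile filter. For other small nucleolar and Cajal body RNA genes it was 0.16 with no filter and 0.78 with the 70th percentile filter, and 0.41 to 0.46 without single arrays. These filters change how many genes are tested.

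Reversals of named genes concerned values near 0. ACSL4 was 0.017 with cyclic loess, 0.098 without si-hnRNPK_dox array 2 and 0.015 without NC_dox array 2, in a range of -0.16 to 0.098 without single arrays. H2BC21 was 0.032 with cyclic loess, and 0.048, 0.032 and 0.060 without si-hnRNPK_dox arrays 1 and 2 and NC_dox array 3, in a range of -0.089 to 0.060 without single arrays. With the 70th percentile filter the list median of hepatocyte function genes was 0.21, and that of long noncoding RNA genes turned from 0.21 to -0.13. The cause was not tested. Of 2693 values of named genes under an alternative, 2671 kept direction and side of the threshold. RNU5A-1 lost its call under 9 of 16 alternatives, CEBPA under 3, and MSMO1 and SRSF7 under 1 each, and IL6 gained one at 0.25 with cyclic loess.
Dim probes limit several lists: 131 of 298 small nucleolar, 23 of 70 histone, 22 of 36 hormone and granule and 38 of 61 hepatocyte genes lay below the filter. Signal over background is not known.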

Other observations

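Some gene groups not described above moved little or in both directions between arrays labelled si-hnRNPK and scramble with DOX. Of 77 mitochondrial ribosomal protein genes 20 rose and 8 fell, with a median log2 difference of 0.11. Of 22 SR splicing factor genes tested 5 rose and 3 fell, with SRSF1, a regulator of exon choice, at 0.51 and SRSF7 at -0.37. Of 11 long noncoding RNA genes tested 4 rose and 3 fell. OIP5-AS1 was at -0.82 and UCA1 at -0.73, and MIR17HG, the host of a microRNA cluster, was at 0.59. HULC averaged 6.37 in arrays labelled si-hnRNPK, against 5.46 in scramble arrays, where it was dim. Of 23 hepatocyte function genes tested 3 rose and 1 fell, and 38 more lay below the filter. ABCC2, a bile transporter, was at 0.63.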
